A study of Mus musculus with 12 samples.

Results

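Mouse genes of the citric acid cycle and of pyruvate metabolism were compared between tibialis anterior (TA) muscles that expressed the human lncRNA *FRAIL1* and control muscles. The members were 39 named mouse genes, found by NCBI Gene ID among the 27179 genes of the count table, and all 39 were among the 15502 genes with enough counts to test. They were listed by name along the steps of the pathway, with earlier results of these data known. One TA of each of 6 mice received 10 μg of empty pcDNA3 plasmid (Control muscles, n = 6) and the TA of its other leg received 10 μg of plasmid carrying full-length *FRAIL1* behind the cytomegalovirus promoter (*FRAIL1* muscles, n = 6). The mice were male and wild type, of the C57BL/6N strain and a few weeks old on arrival, and both TAs were taken at day 7 for sequencing of polyadenylated RNA. Control muscles were thus transfected too, and each served as the other leg of a *FRAIL1* muscle. The cytomegalovirus promoter is not specific to muscle fibers, and a transfected muscle still holds fibers and other cells that took up no plasmid. *FRAIL1* is a human transcript and not among the mouse genes counted, so its own level was not checked here. RNA came from whole tissue, so fewer cells of a type and less RNA per cell cannot be told apart.

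Pyruvate made by glycolysis enters mitochondria through the mitochondrial pyruvate carrier. Inside, the pyruvate dehydrogenase (PDH) complex turns it into acetyl-CoA, and PDH kinases switch the complex off while PDH phosphatases switch it on. The citric acid cycle then oxidizes acetyl-CoA and passes electrons to the respiratory chain, which makes it a main source of energy for oxidative muscle fibers. Pyruvate carboxylase refills the cycle with oxaloacetate, and malic enzymes take malate back to pyruvate while making NADPH or NADH.

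Levels are given as CPM, the usual library-scaled read counts, with edgeR's TMM factors, and differences as log2 fold changes of *FRAIL1* against Control muscles with their standard error (SE). A gene was called where the Benjamini-Hochberg adjusted p of edgeR's quasi-likelihood test, taken over all 15502 genes, was under 0.05. Muscles carry replicate numbers 1 to 6 in both groups, and each mouse gave 1 muscle to each group, so muscles of the same number were read as those of 1 mouse, although the labels do not state this. The test was therefore repeated with the replicate number as a block.

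Total counts were between 44848322 and 60527385 per muscle. *FRAIL1* muscle 5 stood apart from the other libraries, with the highest TMM factor (1.19, against 0.935 to 1.07 in the other 11 muscles). Genes of the mitochondrial genome took 9.12 to 11.4% of the counts in Control and 6.58 to 9.90% in *FRAIL1* muscles, lower in the *FRAIL1* leg of all 6 numbers and lowest in *FRAIL1* muscle 5. Of the 39 members, 30 had their lowest value of all 12 muscles in *FRAIL1* muscle 5, and 24 had their highest value in Control muscle 6. These counts were not made over all genes, so they cannot be read as particular to the members. Fiber markers were abundant in every muscle. The summed level of 8 of them was 133870 to 160326 CPM in Control and 106933 to 142599 CPM in *FRAIL1* muscles, 6 of the 8 had a lower fitted level in *FRAIL1* muscles, and 1 (*Ckm*, muscle creatine kinase) was called lower. Genes of satellite cells and regenerating fibers (3 of 6 called higher) summed to 165 to 212 CPM in Control and 320 to 1531 CPM in *FRAIL1* muscles, the latter in muscle 5. Macrophage markers (0 of 8 called in edgeR, 5 at an unadjusted p under 0.05, 3 higher with the block and 4 called by DESeq2) summed to 164 to 255 and 202 to 574 CPM, and fibroblast markers (0 of 6 called in edgeR, 4 at an unadjusted p under 0.05 and 3 called by DESeq2) to 934 to 1774 and 1881 to 4897 CPM. Genes of fast oxidative and slow fibers summed to 292 to 2163 and 445 to 1580 CPM, and 2 of the 5 were called higher, *Tnni1* (log2 fold change 2.27 ± 0.36 SE, adjusted p = 0.00817 in edgeR) and *Tnnc1* (1.58 ± 0.30, 0.0145), both in 6 of 6 numbers. The myosin genes *Myh2* (-0.21 ± 0.63, 0.862), *Myh7* (0.39 ± 0.57, 0.696) and *Myl2* (0.47 ± 0.75, 0.725) were not called. *Myh7* and *Myl2* were lower in the *FRAIL1* leg of 4 of 6 numbers, and *Myh2* was higher in 4. Endothelial markers (2 of 5 called lower) summed to 359 to 413 and 286 to 365 CPM, and denervation genes (4 of 5 called higher) to 49.6 to 68.5 and 114 to 222 CPM. Beside these marker counts, edgeR called 687 of all 15502 genes higher and 287 lower, and 1159 higher with the block. An unadjusted p under 0.05 in edgeR was found for 4297 of all genes, and DESeq2 called 2232. The part of the cell types above, of fiber type and of mitochondrial RNA in the differences described here was not tested.

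The promoters of 5 members with a call, with or without a replicate block, are shown to let their sequences be compared. RefSeq (GRCm38.p6) windows of the 250 bases before the start site were at hand for 34 members, in 45 windows. The E-box CACGTG, a site type bound by basic helix-loop-helix factors, was in a window of 5 of the 34 members (14.7%) and of 6.86% of all genes with a window. Members with it were *Pdp2*, *Pdpr*, *Ogdh*, *Pdk2* and *Pcx*. By gene, the NRF1 core GCGCATG was in 8.82% of members and 3.68% of all genes, the ETS core CCGGAAG in 8.82% and 7.83%, and the YY1 core AAGATGG in 2.94% and 5.18%. The estrogen-related receptor half-site AAGGTCA and the FOXO core GTAAACA were in none of the 45 windows, and in 4.70% and 3.54% of all genes. A gene with several windows was counted once. Both strands were searched, and a match of letters is not evidence that a factor binds there. Capitals mark the E-box in *Pcx* and *Pdk2* and the ETS core in *Mpc1*. The windows of *Me1* and *Pdk3* held none of the 6 motifs. *Pcx*, *Pdk2*, *Mpc1* and *Me1* each had another window, not shown, that held none of them either. The same was true of the windows of *Pdha1* and *Pdk4*, which had a call with the block and are not shown. No window was at hand for *Me2* and *Adhfe1*.
*Pcx*, chr19:4510222-4510471, plus strand: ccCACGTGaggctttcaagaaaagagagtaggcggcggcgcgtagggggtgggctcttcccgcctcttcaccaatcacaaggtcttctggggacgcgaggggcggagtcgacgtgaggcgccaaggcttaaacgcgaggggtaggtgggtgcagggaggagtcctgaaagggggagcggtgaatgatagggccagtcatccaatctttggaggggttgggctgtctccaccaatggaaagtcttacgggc
*Pdk2*, chr11:95041372-95041621, minus strand: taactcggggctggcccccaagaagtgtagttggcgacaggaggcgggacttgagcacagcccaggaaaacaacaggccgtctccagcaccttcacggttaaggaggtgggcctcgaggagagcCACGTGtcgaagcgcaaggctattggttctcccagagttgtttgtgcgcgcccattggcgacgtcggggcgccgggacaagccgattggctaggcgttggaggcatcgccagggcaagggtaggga
*Mpc1*, chr17:8283537-8283786, plus strand: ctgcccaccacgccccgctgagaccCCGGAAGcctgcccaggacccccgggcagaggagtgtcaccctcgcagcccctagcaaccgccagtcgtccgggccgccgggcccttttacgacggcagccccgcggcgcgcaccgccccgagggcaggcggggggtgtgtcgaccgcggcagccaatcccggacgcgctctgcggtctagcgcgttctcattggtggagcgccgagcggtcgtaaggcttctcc
*Me1*, chr9:86695915-86696164, minus strand: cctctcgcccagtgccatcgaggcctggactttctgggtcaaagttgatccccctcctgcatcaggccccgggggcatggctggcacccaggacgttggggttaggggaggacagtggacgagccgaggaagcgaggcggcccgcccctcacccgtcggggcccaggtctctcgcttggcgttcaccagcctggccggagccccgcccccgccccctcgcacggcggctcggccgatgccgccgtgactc
*Pdk3*, chrX:93832151-93832400, minus strand: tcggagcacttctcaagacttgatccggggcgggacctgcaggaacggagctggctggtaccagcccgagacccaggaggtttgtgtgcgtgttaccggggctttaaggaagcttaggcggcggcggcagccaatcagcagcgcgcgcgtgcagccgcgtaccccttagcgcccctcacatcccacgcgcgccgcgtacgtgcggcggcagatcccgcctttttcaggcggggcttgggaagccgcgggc

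In the comparison of the 2 groups, 3 of 39 members (7.69%) were called, against 6.28% of all genes tested. Those called higher were *Me2* and *Pdk3* (5.13% of members, 4.43% of all genes), and the one called lower was *Pcx* (2.56% of members, 1.85% of all genes). The share of members called thus lay near that of all genes. With the replicate number as a block, 6 members were called lower (15.4%, against 6.62% of all genes), namely *Mpc1*, *Pdha1*, *Pdk2*, *Pdk4*, *Me1* and *Adhfe1*, and only *Me2* was called higher (2.56%, against 7.48%). *Pcx* and *Pdk3* lost their call with the block. Without both muscles numbered 5, the blocked test called 10 members lower (25.6%, against 7.81% of all genes), namely the same 6 and *Pcx*, *Me3*, *Mpc2* and *Idh3b*, and again only *Me2* higher.

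Most members without a call had a lower fitted level in *FRAIL1* muscles by a small amount. The fitted log2 fold change was negative for 33 of 39 members and for 48.4% of all genes tested, and its median was -0.14 over the members and 0.01 over all genes. In 17 members the *FRAIL1* muscle was the lower one of all 6 numbers. The share of all genes with that pattern was not computed. The groups did not overlap in *Me1* and *Adhfe1*, both lower (5.13% of members, 1.77% of all genes), and in *Me2*, higher (2.56% of members, 3.12% of all genes).

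**Figure D1:**
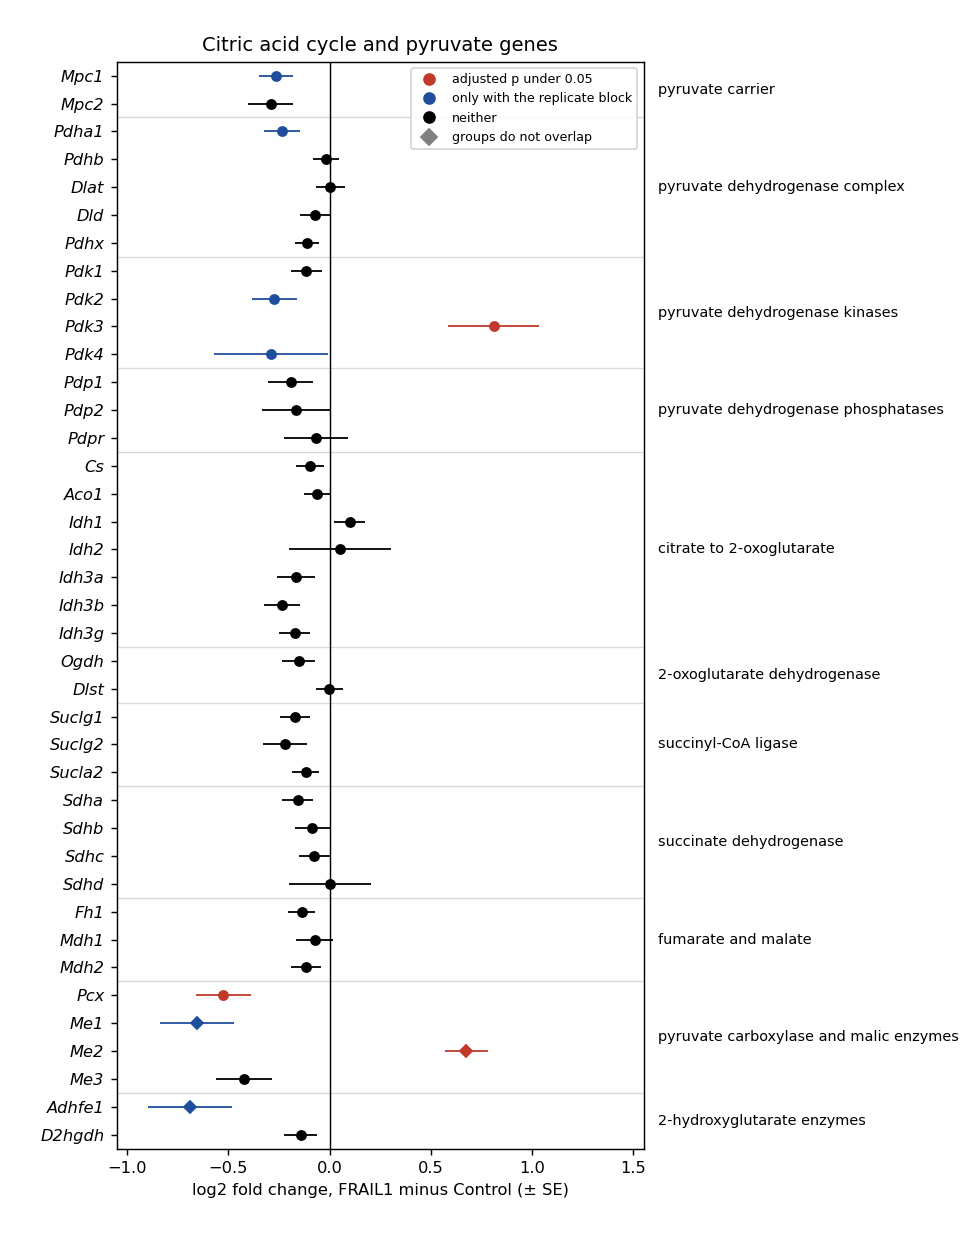
Log2 fold change (*FRAIL1* minus Control, x axis, ± SE) of the 39 members in pathway order. Red marks an adjusted p under 0.05, blue an adjusted p under 0.05 only with the replicate block, and diamonds groups that do not overlap; 33 points lie left of 0 and the largest distances are those of *Pdk3*, *Adhfe1*, *Me2* and *Me1*.

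Levels differed widely between genes, and are compared per kilobase (kb) of exon. *Mdh2*, mitochondrial malate dehydrogenase, had the highest mean in Control muscles (583 ± 39.7 CPM per kb, SD, n = 6), followed by the succinate dehydrogenase subunits *Sdha* (447 ± 23.2) and *Sdhb* (435 ± 46.2), which did not differ beyond their spread. *Idh3b* (365 ± 23.3), *Cs* (340 ± 22.6), *Idh3a* (323 ± 31.5) and *Idh3g* (308 ± 15.5) came next in CPM per kb. *Idh3b* lay above *Cs* by slightly more than either SD, and from *Cs* to *Idh3g* each mean lay within the SD of its neighbour. The lowest levels per kb were those of *Pdp2* (0.543 ± 0.102), *Pdpr* (0.668 ± 0.128) and *Pdk3* (1.10 ± 0.161). *Sdhd* was also listed in this range, but how its reads were assigned is uncertain. The members that differed most between groups were thus not the abundant cycle enzymes but genes of middle or low level.

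**Figure D2:**
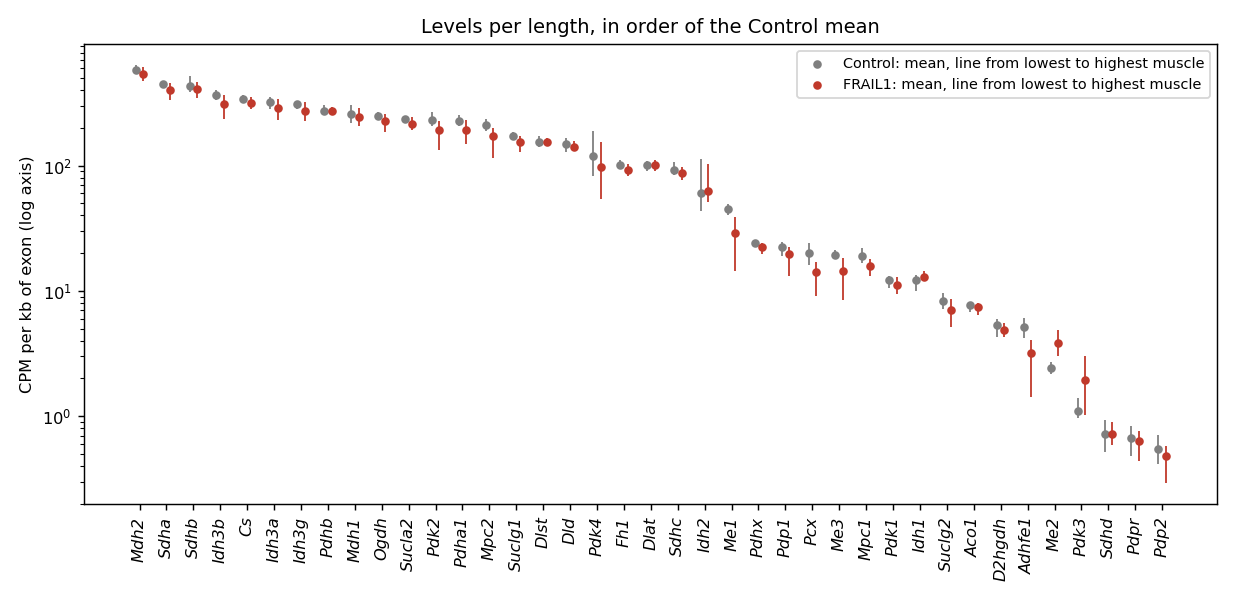
Level per length of each member (y axis, CPM per kb of exon, log axis) in order of the Control mean. Points are group means of 6 muscles and lines run from the lowest to the highest muscle; *Mdh2* is at 583 and *Pdp2* at 0.543 in Control muscles, and the lines of *Me1*, *Me2* and *Adhfe1* do not overlap between groups.

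The pyruvate carrier consists of MPC1 and MPC2, which are both needed for transport. *Mpc1* (Gene ID 55951, chr17:8283787-8297667 in GRCm38, the build of all positions here) had values of 24.3 (lowest), 28.4 (median) and 32.1 CPM (highest) in Control muscles and of 19.5, 23.5 and 26.5 CPM in *FRAIL1* muscles. The groups overlapped, and the *FRAIL1* muscle was lower in 5 of 6 numbers. Its log2 fold change was -0.27 ± 0.08 (SE), with an adjusted p (edgeR) of 0.0614, and 0.0315 with the block. Reads of *Mpc1* are uncertain, since 35.7% of its longest transcript matched *Mpc1-ps* or other genes at 98% identity or more. Exons of *4930506C21Rik* or other genes overlapped 23.4% of its exon length.

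*Mpc2* (Gene ID 70456, chr1:165461260-165481218) ran from 195 to 241 CPM in Control muscles (median 217) and from 118 to 205 CPM in *FRAIL1* muscles (median 185). Every *FRAIL1* muscle was below the Control muscle of its number, while the groups overlapped. Its difference of -0.29 ± 0.11 (log2, SE) had an adjusted p (edgeR) of 0.104, and 0.0556 with the block. The 2 carrier genes were therefore lower by about the same factor (ratios of 0.832 and 0.817), of which only *Mpc1* passed the blocked test.

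Of the 5 genes of the PDH complex, *Pdha1* (Gene ID 18597, chrX:160122219-160138430), the E1 alpha subunit that carries the regulatory phosphorylation sites, differed most. It measured 595, 635 and 721 CPM in Control muscles (lowest, median, highest) and 428, 557 and 658 CPM in *FRAIL1* muscles. The lowest value was that of *FRAIL1* muscle 5, and the *FRAIL1* muscle was lower in 6 of 6 numbers, with overlap between groups. Its log2 fold change was -0.24 ± 0.09 (SE; adjusted p = 0.106 in edgeR, 0.0443 with the block). Exons of *Map3k15* or other genes overlap 21.2% of its exon length. The other subunits were near their Control level. *Pdhb*, the E1 beta subunit, measured 417 ± 30.7 and 411 ± 24.1 CPM (SD, n = 6), and *Dlat*, the E2 core, 406 ± 31.4 and 407 ± 29.9 CPM. *Dld*, the E3 subunit that the 2-oxoglutarate complex also uses, measured 378 ± 36.4 and 360 ± 25.8 CPM, and *Pdhx*, the E3 binding protein, 95.3 ± 4.57 and 88.2 ± 6.20 CPM. None of these 4 was called, and the log2 fold changes had errors of 0.06 to 0.07 (SE). The E1 alpha and beta genes thus had log2 fold changes of -0.24 and -0.02, a difference that was not itself tested.

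The 4 PDH kinases phosphorylate and inactivate the complex, and they did not move together. *Pdk3* (Gene ID 236900, chrX:93764616-93832150) was the least abundant and the one called higher. Its values were 2.05 (lowest), 2.23 (median) and 2.95 CPM (highest) in Control muscles and 2.17, 4.20 and 6.43 CPM in *FRAIL1* muscles. *FRAIL1* muscles 1, 5 and 6 were highest, whereas *FRAIL1* muscle 2 was below its Control muscle and the groups overlapped. The log2 fold change was 0.81 ± 0.23 (SE; adjusted p = 0.0469 in edgeR, 0.0617 with the block). When single muscles were left out, the call held in 2 of 12 fits, those without *FRAIL1* muscle 2 (adjusted p = 0.0141) or 3 (0.0190), and the adjusted p reached 0.0966 without *FRAIL1* muscle 1. Without both muscles numbered 5 it was 0.112.

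*Pdk2* (Gene ID 18604, chr11:95026258-95041371) was the main kinase transcript per length. It measured 470, 520 and 599 CPM in Control muscles and 297, 448 and 507 CPM in *FRAIL1* muscles (lowest, median, highest). Each *FRAIL1* muscle was below the Control muscle of its number, with overlapping groups. The log2 fold change was -0.27 ± 0.11 (SE), with an adjusted p of 0.126 in edgeR and 0.0469 with the block.

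*Pdk4* (Gene ID 27273, chr6:5483351-5496278), the kinase known to rise with fasting and fat oxidation, varied more between muscles of a group than the other kinases did in Control muscles (coefficient of variation 35.7%). In Control muscles 1 to 6 it measured 389, 513, 285, 332, 295 and 661 CPM, and in *FRAIL1* muscles 1 to 6 306, 466, 248, 280, 188 and 538 CPM. Muscles of number 6 were the highest of both groups and those of number 2 the second highest, so the legs of a number shared their level, and the *FRAIL1* leg was lower in 6 of 6 numbers. Without the block the log2 fold change was -0.29 ± 0.28 (SE; adjusted p = 0.539 in edgeR), and with the block it was -0.31 ± 0.07 (adjusted p = 0.0199). *Pdk1* measured 63.1 ± 4.40 and 58.3 ± 6.81 CPM (SD, n = 6) and was not called.

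Together, the 4 kinases summed to 365 ± 59.4 CPM per kb in Control and 303 ± 67.1 CPM per kb in *FRAIL1* muscles, with the *FRAIL1* leg lower in 6 of 6 numbers. Their makeup was alike in both groups. *Pdk2* made up 64.6 ± 5.73% (SD) of the sum in Control and 64.3 ± 5.67% in *FRAIL1* muscles, and *Pdk4* 31.7 ± 6.06% and 31.2 ± 6.29%. *Pdk3* went from 0.306 ± 0.0450% to 0.708 ± 0.445%, so the kinase that was called higher stayed a small share of the sum.

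The PDH phosphatases reverse the kinases. *Pdp1*, the calcium-sensitive catalytic subunit, measured 102 ± 8.88 CPM in Control and 88.9 ± 15.5 CPM in *FRAIL1* muscles (SD, n = 6), below Control in 6 of 6 numbers but without a call (adjusted p = 0.268 in edgeR, 0.0711 with the block). *Pdp2* and the regulatory subunit *Pdpr* measured 3.09 ± 0.583 and 3.30 ± 0.632 CPM in Control muscles and 2.76 ± 0.579 and 3.15 ± 0.576 CPM in *FRAIL1* muscles. The ratio of summed kinases to summed catalytic phosphatases, on the CPM per kb scale, was 15.9 ± 2.77 and 15.0 ± 1.74 and overlapped between groups.

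**Figure D3:**
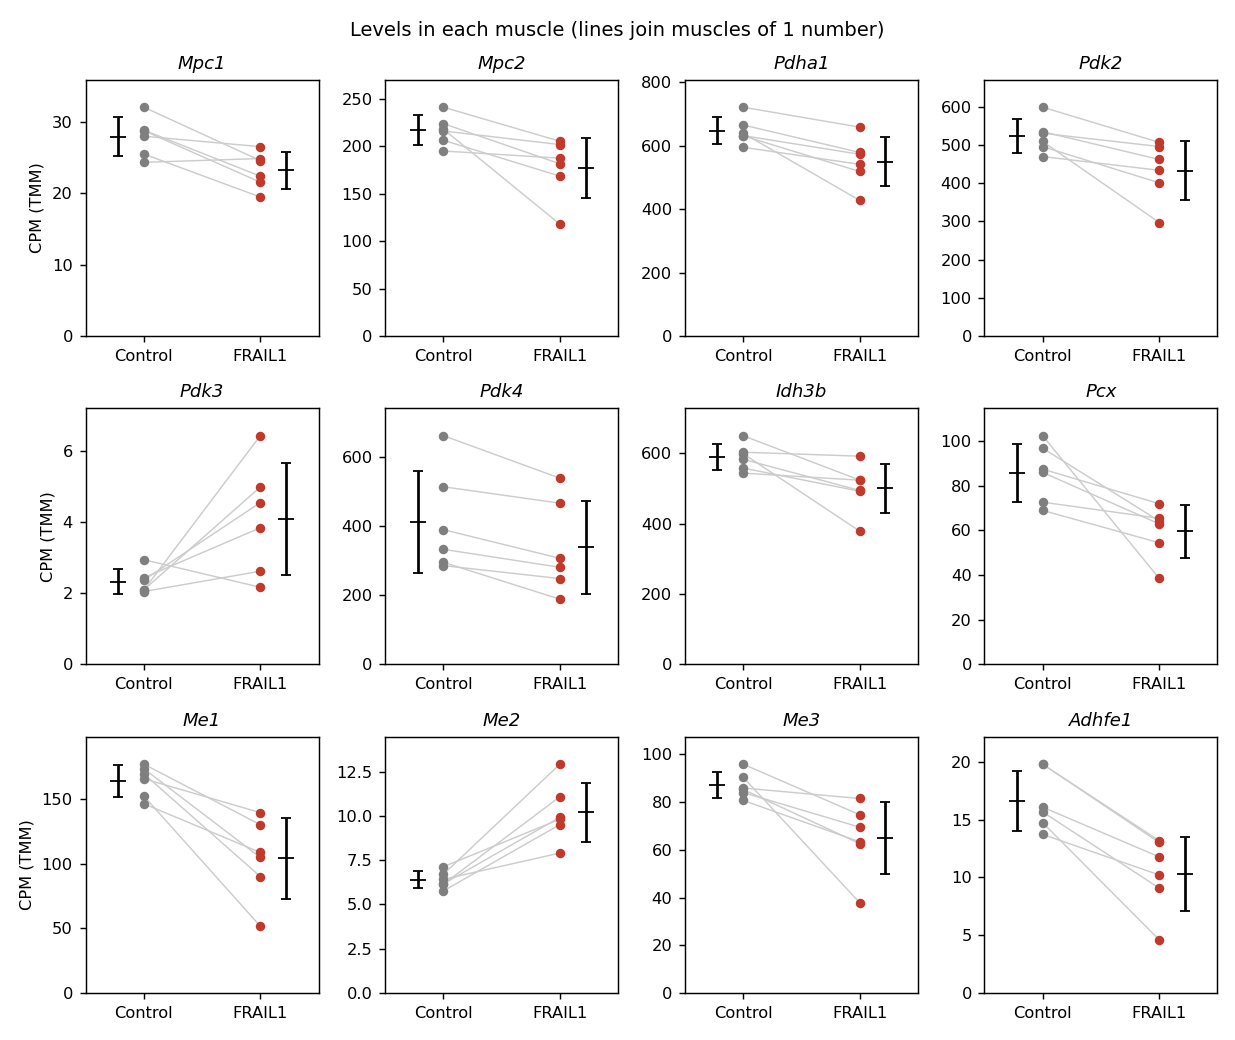
Levels (y axis, CPM, from 0) of the 12 members given in full, in 6 Control (grey) and 6 *FRAIL1* muscles (red), with group means ± SD and lines joining muscles of the same number. *Me2* is higher and *Me1* and *Adhfe1* are lower without overlap, and in *Pdk4* the lines run nearly parallel from 285 to 661 CPM down to 188 to 538 CPM.

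Of the 19 enzymes of the cycle itself, from citrate synthase to malate dehydrogenase and with the cytosolic forms *Aco1*, *Idh1* and *Mdh1* included, none was called in edgeR with or without the block. The smallest adjusted p in edgeR was 0.109 without the block, and 3 of the 19 had an unadjusted p under 0.05. Limma voom and DESeq2 called 0 of the 19, and DESeq2 with the block called 2 (*Idh3a* and *Idh3b*). Over all 15502 genes, edgeR called 974 without and 2186 with the block, and 4297 had an unadjusted p under 0.05. Of the same genes, limma voom called 1756, DESeq2 2232 and DESeq2 with the block 2898. The fitted level was lower in 16 of the 19 cycle enzymes, with log2 fold changes from -0.24 to 0.10 and a median of -0.12. Over the 16 mitochondrial enzymes, the median within-number log2 difference was -0.09, -0.15, -0.03, -0.02, -0.30 and -0.15 for numbers 1 to 6. All 16 were lower in numbers 2 and 6, but only 10 and 9 of 16 in numbers 3 and 4. The size of the difference therefore varied between numbers, and number 5 was the farthest out. With 1 muscle per leg, differences between mice, transfections and libraries cannot be told apart.

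The first steps run from citrate synthase to 2-oxoglutarate. *Cs*, citrate synthase, which joins acetyl-CoA to oxaloacetate and is widely used as a measure of mitochondrial content, measured 995 ± 66.01 and 931 ± 72.4 CPM (SD, n = 6; log2 fold change -0.10 ± 0.07 SE, adjusted p = 0.391 in edgeR). The NAD-dependent isocitrate dehydrogenase has 3 kinds of subunit. Of these, *Idh3b* (Gene ID 170718, chr2:130279309-130284451) had values of 543, 591 and 650 CPM in Control muscles and 379, 509 and 592 CPM in *FRAIL1* muscles (lowest, median, highest). The groups overlapped, and the *FRAIL1* muscle was lower in 6 of 6 numbers. Its log2 fold change was -0.24 ± 0.09 (SE; adjusted p = 0.109 in edgeR, 0.0686 with the block). Without *FRAIL1* muscle 3 the adjusted p was 0.0404, and in the other 11 fits that left out 1 muscle it was 0.118 to 0.192. The catalytic subunit *Idh3a* measured 833 ± 81.3 and 742 ± 98.8 CPM and *Idh3g* 410 ± 20.7 and 364 ± 40.7 CPM, so the 3 subunits had log2 fold changes between -0.24 and -0.17.

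The NADP-dependent forms were not called. *Idh1*, in the cytosol, measured 30.1 ± 3.65 and 32.3 ± 2.14 CPM (log2 fold change 0.10 ± 0.08 SE). *Idh2*, in mitochondria, measured 105 ± 45.5 and 109 ± 34.9 CPM (0.05 ± 0.25), and the muscles of number 6 stood apart. Control muscle 6 had 197 CPM and *FRAIL1* muscle 6 had 180 CPM, whereas the other 10 muscles lay between 75.6 and 99.9 CPM. In the same muscles *Myh2*, the myosin of fast oxidative fibers, measured 2133 and 1448 CPM, against 261 to 553 CPM in the other 10 muscles. *Idh2* made up 82.1 ± 3.81% of both NADP forms per kb in Control and 82.0 ± 3.68% in *FRAIL1* muscles. *Aco1*, cytosolic aconitase, measured 29.6 ± 1.96 and 28.4 ± 2.14 CPM.

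The 2-oxoglutarate dehydrogenase complex turns 2-oxoglutarate into succinyl-CoA. *Ogdh*, the E1 subunit, measured 1115 ± 63.2 and 1003 ± 116 CPM (SD, n = 6) and was lower in 6 of 6 numbers, whereas *Dlst*, the E2 core, measured 431 ± 32.8 and 430 ± 23.7 CPM and was lower in 3 of 6. Neither was called. Their log2 fold changes were -0.15 ± 0.08 and 0.00 ± 0.07 (SE).

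Succinyl-CoA ligase pairs 1 alpha subunit with a beta subunit that uses either ATP or GTP. All 3 genes were lower in 6 of 6 numbers without a call. *Suclg1* (alpha) measured 263 ± 16.3 and 234 ± 23.5 CPM, *Sucla2* (ATP form) 521 ± 27.7 and 480 ± 39.3 CPM, and *Suclg2* (GTP form) 31.0 ± 3.49 and 26.6 ± 4.43 CPM. The ATP form made up 96.6 ± 0.300% of the beta transcripts per kb in Control and 96.8 ± 0.375% in *FRAIL1* muscles. Over 38.7% of its longest transcript *Suclg2* matched *Gm15163* or other genes at 98% identity or more, so its reads are uncertain.

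Succinate dehydrogenase feeds electrons straight into the respiratory chain as its complex II. The flavoprotein *Sdha* measured 1296 ± 67.4 and 1161 ± 118 CPM (SD, n = 6; log2 fold change -0.16 ± 0.08 SE, lower in 6 of 6 numbers), and the iron-sulfur subunit *Sdhb* measured 496 ± 52.8 and 468 ± 49.96 CPM (-0.09 ± 0.09). The membrane anchor *Sdhc* measured 291 ± 26.9 and 276 ± 23.8 CPM. Its partner anchor *Sdhd* was listed at only 0.883 ± 0.207 and 0.883 ± 0.147 CPM, although the 4 proteins form a complex with equal copies. Per kb, *Sdhd* was at 0.717 CPM and *Sdhc* at 91.7 CPM in Control muscles. No annotated transcript of another gene matched *Sdhd* at 98% identity or more, and how its reads were assigned was not tested, so its value is not read as a level of the gene.

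*Fh1*, fumarase, measured 269 ± 17.4 and 244 ± 20.4 CPM and was lower in 6 of 6 numbers (log2 fold change -0.14 ± 0.07 SE). The mitochondrial malate dehydrogenase *Mdh2* measured 849 ± 57.8 and 784 ± 70.7 CPM, and the cytosolic *Mdh1* measured 546 ± 64.0 and 519 ± 62.0 CPM (SD, n = 6). None of these 3 was called, with adjusted p in edgeR from 0.198 to 0.638.

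Pyruvate carboxylase fills the cycle and malic enzymes drain it. The 3 malic enzymes and pyruvate carboxylase had log2 fold changes from -0.66 to 0.67, and all 4 had the same direction in 6 of 6 numbers. *Me2* (Gene ID 107029), the mitochondrial NAD-dependent malic enzyme, rose. It measured 5.76, 6.29 and 7.13 CPM in Control muscles (lowest, median, highest) and 7.90, 9.86 and 12.9 CPM in *FRAIL1* muscles. The lowest *FRAIL1* muscle was above the highest Control muscle. The log2 fold change was 0.67 ± 0.11 (SE), a ratio of 1.60, with an adjusted p of 0.00386 in edgeR and 0.00422 with the block. *Me2* was called in each of the 24 alternative fits, including all 12 that left out a muscle (adjusted p from 0.00101 to 0.0135).

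*Me1* (Gene ID 17436, chr9:86581363-86695914), the cytosolic NADP-dependent malic enzyme and a source of NADPH for fatty acid synthesis, had the opposite direction. It measured 146, 168 and 177 CPM in Control muscles and 51.6, 107 and 139 CPM in *FRAIL1* muscles (lowest, median, highest). Every *FRAIL1* muscle was below every Control muscle, and *FRAIL1* muscle 5 was the lowest. The log2 fold change was -0.66 ± 0.18 (SE), a ratio of 0.635, with an adjusted p of 0.0504 in edgeR, just above the threshold, and 0.0281 with the block. It passed in 3 of 12 fits that left out 1 muscle, without *FRAIL1* muscle 5 (log2 fold change -0.52, adjusted p in edgeR 0.00798), 2 (0.0264) or 3 (0.0297), and the other 9 gave 0.0693 to 0.102. *Me1* is also abundant in adipocytes. The 5 adipocyte markers summed to 6.19 to 35.9 CPM in Control muscles, highest in muscle 5 with *Me1* at 152 CPM, and to 5.89 to 9.53 CPM in *FRAIL1* muscles, and 0 of the 4 tested were called in edgeR (adjusted p from 0.167 to 0.347, 1 with an unadjusted p under 0.05) or DESeq2. Their part in the values of *Me1* was not tested. Reads of *Me1* could be shared, since 60.1% of its longest transcript matched *Gm7049* or other genes at 98% identity or more.

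*Me3* (Gene ID 109264, chr7:89632284-89854359), the mitochondrial NADP-dependent form, lay on the side of *Me1*. Its values were 80.7, 85.6 and 95.9 CPM in Control muscles and 37.9, 66.4 and 81.5 CPM in *FRAIL1* muscles, with overlap only through *FRAIL1* muscle 3. Its difference of -0.42 ± 0.14 (log2, SE) had an adjusted p of 0.0739 in edgeR and 0.0574 with the block. Among fits that left out 1 muscle it passed in 2 of 12, without *FRAIL1* muscle 5 (0.0178) or 3 (0.0315), and the other 10 gave 0.0770 to 0.127. Exons of *A230065N10Rik* or other genes overlap 8.72% of its exon length.

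Per kb, the 3 malic enzymes summed to 67.3 ± 2.56 CPM per kb in Control and 47.2 ± 11.0 CPM per kb in *FRAIL1* muscles, and the groups did not overlap (64.3 to 70.6 and 27.7 to 57.2). *Me1* made up 67.5 ± 2.73% of the sum in Control and 60.2 ± 5.47% in *FRAIL1* muscles and *Me3* 28.9 ± 2.64% and 30.8 ± 2.97%. *Me2* went from 3.60 ± 0.272% to 9.004 ± 4.43%, and its share was 17.7% in *FRAIL1* muscle 5 and 5.23 to 8.48% in the other *FRAIL1* muscles. The ratio of *Me1* to *Me2* was 16.6 to 21.5 in Control and 2.92 to 12.04 in *FRAIL1* muscles. These shares and ratios were formed after the values were seen and were not tested.

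**Figure D4:**
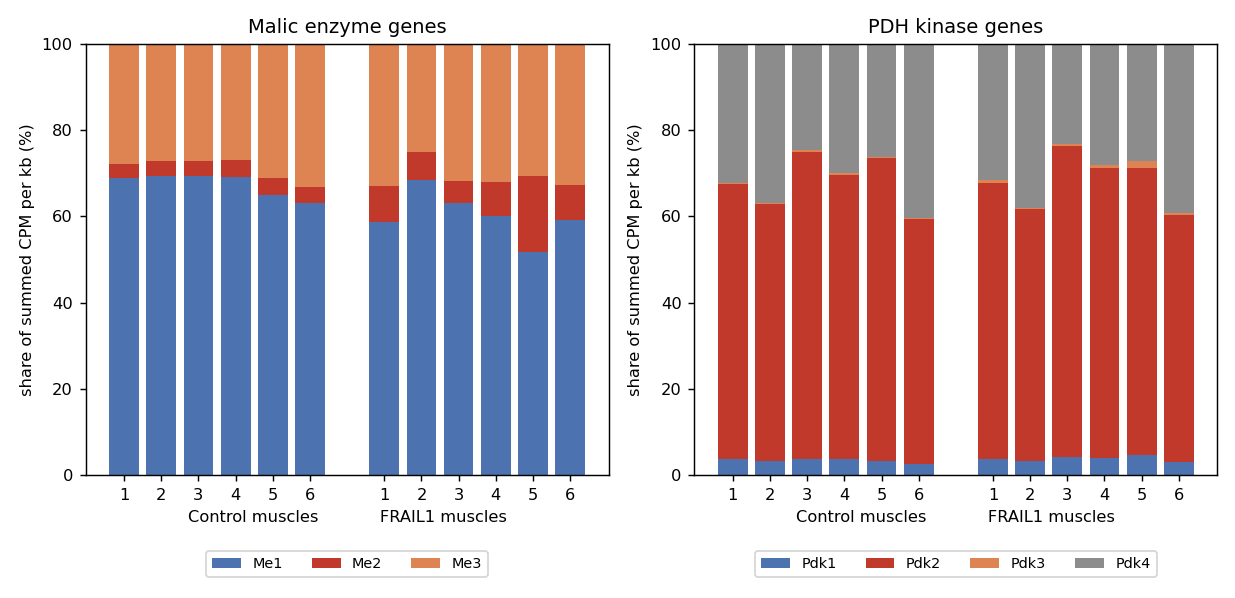
Share of each gene in the summed level per kb (y axis, %) of the malic enzymes (left) and the PDH kinases (right), 1 bar per muscle, numbers 1 to 6 in each group. *Me2* takes 3.20 to 3.91% in Control and 5.23 to 17.7% in *FRAIL1* muscles, whereas *Pdk2* and *Pdk4* keep similar shares in both legs of a number.

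*Pcx* (Gene ID 18563, chr19:4510472-4621752), pyruvate carboxylase, makes oxaloacetate from pyruvate and so refills the cycle. It fell in *FRAIL1* muscles. The values were 68.9, 86.7 and 102 CPM in Control muscles and 38.5, 63.5 and 71.9 CPM in *FRAIL1* muscles (lowest, median, highest), and each *FRAIL1* muscle was below its Control muscle although the groups overlapped. With a log2 fold change of -0.52 ± 0.14 (SE), a ratio of 0.695, its adjusted p was 0.0422 in edgeR and 0.0563 with the block. The call held in the fits without Control muscle 6, *FRAIL1* muscle 2, *FRAIL1* muscle 3 or *FRAIL1* muscle 5 (adjusted p in edgeR from 0.0235 to 0.0417). It was lost in the other 8 that left out 1 muscle (0.0549 to 0.0890). The ratio of *Pcx* to *Pdha1* per kb, the branch point of pyruvate, was 0.0676 to 0.107 in Control and 0.0604 to 0.0834 in *FRAIL1* muscles, with the lower value in the *FRAIL1* leg of all 6 numbers.

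The last members handle 2-hydroxyglutarate, a side product of the cycle. *Adhfe1* (Gene ID 76187, chr1:9547948-9577970), a transhydrogenase that couples the oxidation of 4-hydroxybutyrate to the formation of D-2-hydroxyglutarate, measured 13.7, 15.9 and 19.8 CPM in Control muscles and 4.599, 11.0 and 13.2 CPM in *FRAIL1* muscles (lowest, median, highest). The groups did not overlap, with the highest *FRAIL1* muscle just under the lowest Control muscle. The log2 fold change was -0.69 ± 0.21 (SE), with an adjusted p of 0.0609 in edgeR and 0.0169 with the block. It passed in 2 of 12 fits that left out 1 muscle, without *FRAIL1* muscle 5 (0.0160) or 3 (0.0385), and the other 10 gave 0.0577 to 0.120. Exons of *2610203C22Rik* or other genes overlap 4.755% of the exon length of *Adhfe1*. *D2hgdh*, which oxidizes D-2-hydroxyglutarate back to 2-oxoglutarate, measured 18.8 ± 1.999 and 17.0 ± 1.58 CPM (SD, n = 6) and was not called. Over 27.72% of its longest transcript *D2hgdh* matched *Gm7889* or other genes at 98% identity or more, so its reads are uncertain.

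**Figure D5:**
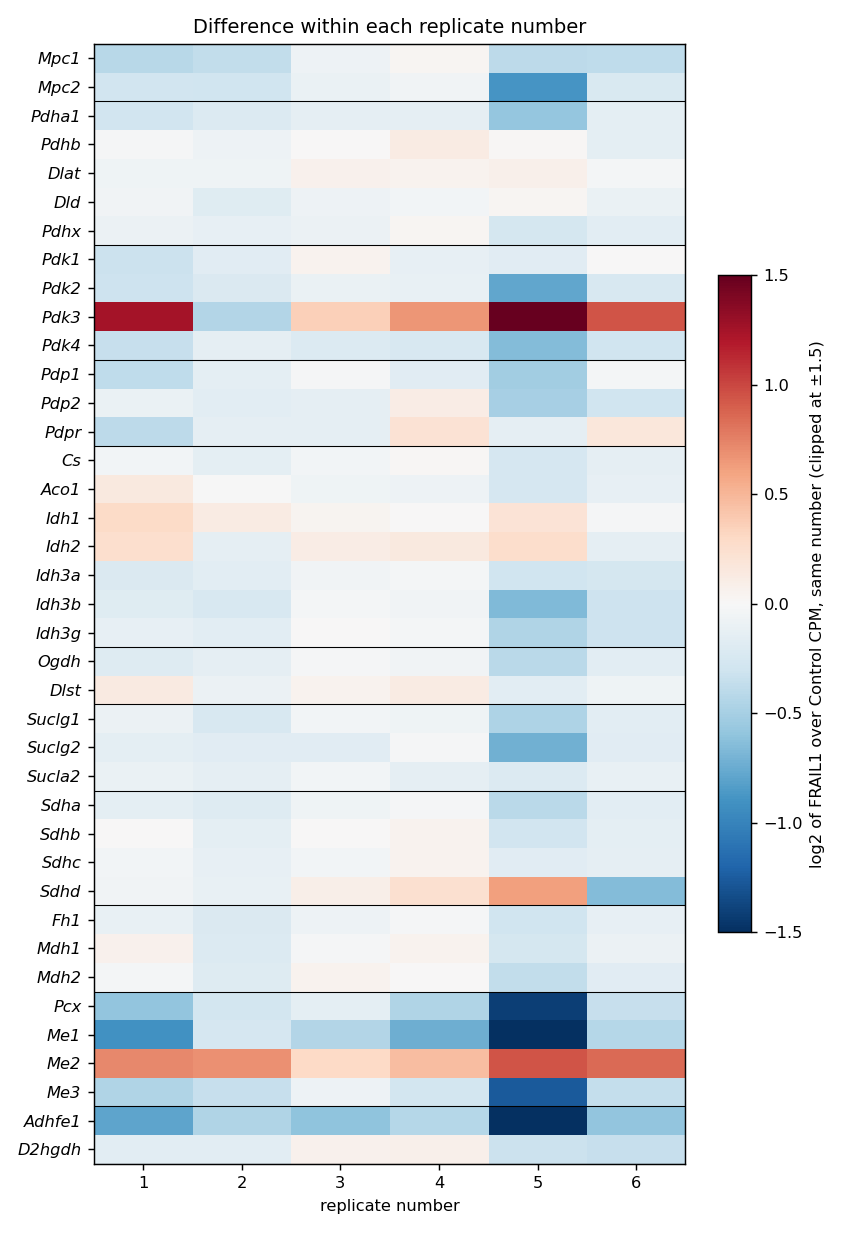
Log2 difference of the *FRAIL1* from the Control muscle of the same number (color, clipped at ±1.5) for the 39 members (rows, in pathway order) and numbers 1 to 6 (columns). *Me2* is higher and *Me1*, *Me3*, *Pcx* and *Adhfe1* are lower in all 6 columns, and the median over members is farthest from 0 in number 5 (-0.30).

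Other genes of the pathway (35) covered assembly factors, lipoylation, branched-chain keto acid oxidation, lactate and amino acid exchange. Of these 35, 1 was called lower (1.85% of all genes) and 0 higher (4.43%) in edgeR. In 10 of the 35 the unadjusted p was under 0.05, DESeq2 called 4 and limma voom 3. Over all 15502 genes, 4297 had an unadjusted p under 0.05 in edgeR, DESeq2 called 2232 and limma voom 1756. *Gpt2*, the mitochondrial alanine aminotransferase that interconverts pyruvate and alanine, fell from 243 ± 35.9 to 178 ± 31.4 CPM (SD, n = 6; log2 fold change -0.44 ± 0.12 SE, adjusted p = 0.0459 in edgeR, 0.0176 with the block). With the block, 4 of the 35 were called lower and 1 higher (6.62% and 7.48% of all genes). Besides *Gpt2*, the lower ones included the kinase *Bckdk* and phosphatase *Ppm1k* of the branched-chain keto acid dehydrogenase complex. *Bckdk* measured 168 ± 5.31 and 140 ± 18.5 CPM and *Ppm1k* 12.9 ± 1.98 and 10.4 ± 2.03 CPM (blocked adjusted p in edgeR 0.0475 and 0.0275). The higher one was *Acss2*, which makes acetyl-CoA from acetate in the cytosol and nucleus (31.3 ± 5.60 and 36.7 ± 3.90 CPM, blocked adjusted p = 0.0345 in edgeR). The fitted level was lower for 27 of the 35 (48.4% of all genes), with a median log2 fold change of -0.09.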

How the data were processed

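RNA was taken from 12 TA muscles (6 Control, 6 *FRAIL1*). According to the methods and the labels, the authors trimmed reads with Trimmomatic, mapped them to mm10 with STAR 2.7.8a and counted uniquely mapped reads per gene with featureCounts 2.0.1. The deposited counts are whole numbers without normalization. A strand setting is not given in the sources used here, so overlapping genes carry that limit.

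Of 27179 genes, 25275 were matched by NCBI Gene ID to a symbol and position in GRCm38, and the others held 0.280% of the counts. All 12 count columns were mapped to samples, and columns and groups were taken from the labels. After filterByExpr and TMM scaling, groups were compared by glmQLFTest on a robust fit (edgeR 4.0.16, R 4.3.3; threshold 0.05). The script was first tested on simulated data in which 200 genes were changed by known amounts. The main fit recovered 75.3% of 2-fold changes and 49.5% of log2 changes of 0.5, and 9 of its 131 calls were false. Smaller changes were not simulated, so a member without a call may still differ. Alternatives used limma 3.58.1 and DESeq2 1.42.0. Members with a call, with or without the replicate block, or with groups that did not overlap are given in full (9), and the 3 next by p were added to make 12. The members and lists were chosen with earlier results of these data known. Within a group, libraries differed beyond sampling noise (chi-square per degree of freedom of 15.2 or more), so no library was a copy.

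Whether the replicate numbers pair the muscles was checked on deviations from the group means over all genes tested. The design gives 1 muscle of each mouse to each group, and same-numbered muscles had correlations of 0.254, 0.162, 0.282, 0.263, 0.0547 and 0.185 (numbers 1 to 6; mean 0.200, against -0.0400 between numbers). In number 5 neither muscle correlated best with the muscle of its own number, whereas in the other numbers both did. Intervals on counts would cover counting error only, and each error printed is an SD over muscles or the SE of the fit. One gene of the related list that passed the blocked test is not reported here.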

Additional observations from a re-analysis of the deposited data

Results flagged for a closer look

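In 78 groups of 6 values (39 members in 2 groups), 3 had an extreme value whose gap to the nearest muscle exceeded 0.625 of the group's range, where chance gives about 1 in 20 groups. *Idh2* measured 197 CPM in Control muscle 6, against 75.6 to 98.2 CPM in the other Control muscles, and 180 CPM in *FRAIL1* muscle 6, against 89.7 to 99.9 CPM in the others. Both muscles carry the number 6. *Pdp2* measured 1.66 CPM in *FRAIL1* muscle 5, against 2.72 to 3.29 CPM in the other *FRAIL1* muscles.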

How the results depend on the processing

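Of 39 members, 33 kept the sign of their log2 fold change in all 24 alternative fits. *Me2* kept its call in all of them. The median log2 fold change of the members lay between -0.16 and -0.09 when muscles were left out 1 at a time, and leaving out the 7 members with exon overlap left 2 called higher and 1 lower without the block. With the block, as added after seeing the data, leaving them out gave 1 higher and 2 lower (*Pdk2* and *Pdk4*) of 32 members in place of 6 lower of 39. Of all genes, 7.48% were called higher and 6.62% lower with the block. The share of these 32 members called lower lay near that of all genes. Genes with exon overlap were not left out of all genes, so the sets are not alike. Any overlap counted, down to 0.309% of exon length in *Idh3b* and 0.832% in *Me1*.

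The count of members called lower (1) depended on the fit. It was 2 with DESeq2 size factors, upper-quartile scaling, TMM without mitochondrial and top genes or at least 10 counts in every muscle, 0 with no filter, 3 with a fit that was not robust, 4 without both muscles numbered 5, 5 with DESeq2's Wald test and 6 with limma voom. With the replicate block it was 6, with the block and without both muscles numbered 5 it was 10, and with the block in DESeq2 it was 12. All genes called lower were 287 of 15502 in the main fit, 1027 with the block and 1422 with the block in DESeq2. They were 391 without number 5, 1212 with the block besides, 951 with DESeq2's Wald test and 813 with limma voom. DESeq2 size factors gave 339, upper-quartile scaling 398, TMM without mitochondrial and top genes 310 and 10 counts in every muscle 312 of 14286. No filter gave 184 of 21534, and the fit that was not robust gave 304. Members called higher (2) were 1 with the block, without number 5 (with or without the block) and with limma voom. All genes called higher were 687 in the main fit, 1159 with the block and 943 with limma voom. Without number 5 they were 480, and 1093 with the block besides. All genes called (974) were 2186 with the block, 2305 with the block and without number 5, 1756 with limma voom, 2232 with DESeq2 and 2898 with the block in DESeq2. Leaving out 1 muscle gave 364 (without *FRAIL1* muscle 1) to 2110 genes (without *FRAIL1* muscle 3), 0 to 8 members lower and 1 to 2 higher. In the fits without *FRAIL1* muscle 1 and *FRAIL1* muscle 3, 50 and 882 of all genes were called lower. The cause was not tested.

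Signs turned in 6 members near 0, given on the log2 scale. *Dlat* was -0.00309 with DESeq2 size factors and with its Wald test, -0.00267 with the block besides, -0.0116 without number 5, -0.0126 with the block besides and -0.00763 with limma voom. *Dlst* was 0.000973 with the block, 0.00447 with upper-quartile scaling, 0.00244 with 10 counts in every muscle, 0.0268 without number 5, 0.0293 with the block besides and 0.0182 with limma voom. *Sdhd* was -0.00653 with DESeq2 size factors, -0.00591 with its Wald test, -0.00196 without mitochondrial and top genes, -0.000623 with no filter, -0.107 without number 5, -0.105 with the block besides and -0.0387 with limma voom. With 1 muscle left out, *Dlat* lay between -0.0267 and 0.0300, *Dlst* between -0.0277 and 0.0306, *Sdhd* between -0.0760 and 0.0854, *Idh2* between -0.15 and 0.33, *Pdhb* between -0.0448 and 0.0122 and *Pdpr* between -0.15 and 0.0159. Depth limits mainly *Sdhd*, *Pdp2*, *Pdpr* and *Pdk3*, which lay under 7 CPM in every muscle.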
